A study of Homo sapiens with 2 samples.

Results

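NeuroD1 peaks lying deep inside long genes were described in IMR-32 cells, a human neuroblastoma cell line of wild-type genotype by its label. A peak was taken as deep when it overlapped a protein-coding gene of at least 200 kb and lay more than 10 kb from both ends of every protein-coding gene. This rule used position only, and 685 of the 6183 peaks in the list met it (11.1%, 95% interval 10.3 to 11.9). The data come from 1 chromatin immunoprecipitation sequencing (ChIP-seq) library made with a NeuroD1 antibody (CST), in which bound DNA is enriched and regions with more reads than the local background are called as peaks. An input library of the same cells was not analysed here. With 1 library and no replicate, no test was possible, and every interval is a 95% interval that covers counting error only.

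NeuroD1 is a neurogenic basic helix-loop-helix factor. It pairs with E-proteins and binds the E-box, CANNTG, with CAGATG and CAGCTG among its preferred forms. Long genes are often neuronal, and many of them carry alternative promoters far inside the gene, from which shorter transcripts start. Factors of this family bind both promoters and distal elements, so a peak deep inside a gene body can lie at an inner promoter or at a site with no annotated start.

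Of the 685 deep peaks, 661 lay on chromosomes covered by the RefSeq table of gene starts used here, and 51 of these were within 1 kb of an annotated start. For 4 of the inner starts, the 250 bases before the start (GRCh38.p14, 5′ to 3′ on the strand of the gene) are shown because a deep peak had its summit inside them. ADGRL2 and DAB2IP had the highest fold enrichment among the deep peaks with a summit in such a stretch, and MCF2L and NFIB were chosen, after their values were seen, because they hold a preferred E-box. Capitals mark CAGATG, its complement CATCTG, and CAGCTG. The ADGRL2 stretch is chr1:81801192-81801441 on the plus strand, the DAB2IP stretch chr9:121651384-121651633 on the plus strand, the MCF2L stretch chr13:113001464-113001713 on the plus strand and the NFIB stretch chr9:14322388-14322637 on the minus strand.
ADGRL2: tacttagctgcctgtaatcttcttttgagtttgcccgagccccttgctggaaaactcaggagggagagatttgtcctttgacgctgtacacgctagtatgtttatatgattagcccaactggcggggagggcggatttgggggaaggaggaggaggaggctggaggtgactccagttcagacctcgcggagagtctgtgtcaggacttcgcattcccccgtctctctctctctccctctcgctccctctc
DAB2IP: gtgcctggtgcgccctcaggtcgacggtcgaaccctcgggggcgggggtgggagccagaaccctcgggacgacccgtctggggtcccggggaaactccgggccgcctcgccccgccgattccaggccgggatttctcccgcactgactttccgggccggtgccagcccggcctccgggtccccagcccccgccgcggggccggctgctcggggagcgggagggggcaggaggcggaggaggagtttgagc
MCF2L: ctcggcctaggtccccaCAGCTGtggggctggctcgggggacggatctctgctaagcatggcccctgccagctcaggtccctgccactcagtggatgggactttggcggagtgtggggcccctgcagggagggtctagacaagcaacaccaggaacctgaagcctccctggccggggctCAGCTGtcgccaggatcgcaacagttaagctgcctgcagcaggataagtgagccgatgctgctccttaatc
NFIB: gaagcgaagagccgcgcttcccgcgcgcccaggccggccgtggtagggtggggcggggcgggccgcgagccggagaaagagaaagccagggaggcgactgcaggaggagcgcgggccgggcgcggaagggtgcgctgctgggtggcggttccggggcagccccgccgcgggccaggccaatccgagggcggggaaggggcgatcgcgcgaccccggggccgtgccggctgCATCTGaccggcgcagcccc

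The MCF2L stretch held CAGCTG 233 and 71 bases before the start, and the NFIB stretch held CATCTG 20 bases before it. Neither form was found in the ADGRL2 and DAB2IP stretches. Both of these lay wholly inside their peaks. In ADGRL2 the summit was 35 bases before the start, and in DAB2IP it was 57 bases before it. The summits in MCF2L and NFIB were 107 and 147 bases before their starts, so no marked form lay at a summit. The MCF2L form at 233 bases lay just outside its peak, and the NFIB form lay at the edge of its peak.

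The share of RefSeq windows (250 bases before to 50 after a start) with a preferred E-box was no higher where a deep summit lay in them. Both strands were searched for CAGATG and CAGCTG, and 11 of 38 such windows held one or the other (28.9%, 15.4 to 45.9). The share was 35.8% of the 2132 windows at starts deep inside long genes without a deep summit, and 29.8% of all 34943 windows. The general form CANNTG, which includes both of the others, was in 60.5%, 77.7% and 68.7% of the 3 sets. Base composition moved with these shares, with a median GC content of 71.0%, 46.3% and 58.7%, and its part in them was not tested. The sequence under the other deep peaks was not used here.

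Deep peaks were denser near inner starts than in the remaining interior of long genes. Within 1 kb of the inner starts the rate was 1.31 deep peaks per 100 kb (0.972 to 1.72), over 3.91 Mb. Farther away it was 0.118 per 100 kb (0.109 to 0.128), over 518 Mb. The intervals do not overlap. The 51 deep peaks within 1 kb made 7.72% of the 661 (5.80 to 10.02), and an annotated start lay inside 27 of them. The nearest of these starts was one of the host gene for 42 of the 51 and one of a long noncoding RNA for the other 9. Most inner starts had no peak, since a deep peak lay within 1 kb of 67 of the 2170 (3.09%).

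Inner starts of shorter genes held a larger share of the deep peaks there. In genes under 200 kb, 113 of 609 deep peaks were within 1 kb of an inner start (18.6%, 15.5 to 21.9), an interval above that of the long genes. The rate there was 2.55 per 100 kb near starts (2.10 to 3.07). Away from starts it was 0.128 per 100 kb (0.117 to 0.140), which overlaps the 0.118 of the long genes.

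Some of the strongest deep peaks were at inner starts. Fold enrichment compares the ChIP pileup at the summit with its local background, after 1 is added to each. Of the 5 deep peaks with the highest fold enrichment, 3 were within 1 kb of an annotated start, namely those in ADGRL2, RBPJ and DAB2IP. Of the first 100 by the same order, 10 were. The medians differed little, at 6.66 near starts and 6.45 away from them. None of the 51 peaks near starts had a local background over 10, and without such peaks the median away from starts was 6.74. A fold enrichment of at least 10 was reached by 9 of 51 peaks near starts (17.6%, 8.40 to 30.9) and by 63 of 610 away from them (10.3%, 8.03 to 13.0), and these intervals overlap.

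**Figure D1:**
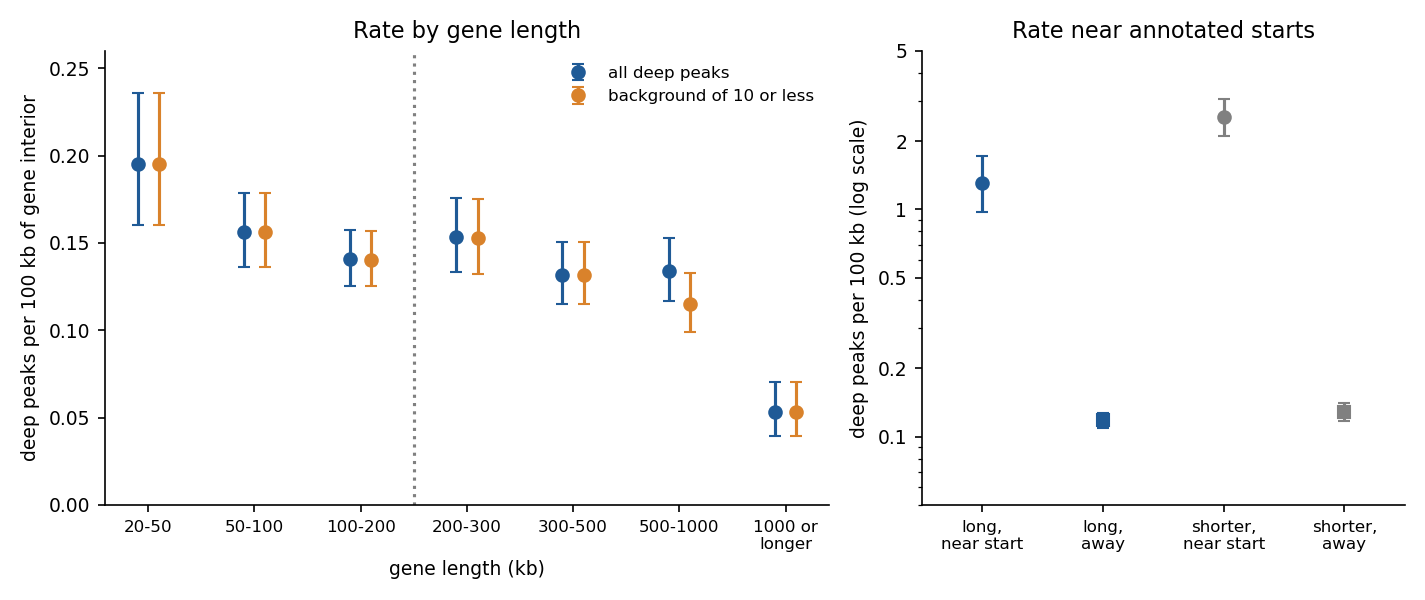
Deep peaks per 100 kb of gene interior by gene length in kb (left; blue all deep peaks, orange those with a local background of 10 or less, dotted line at 200 kb) and within or beyond 1 kb of annotated inner starts (right, log scale; circles near, squares away). Points are rates and bars exact Poisson 95% intervals. The class of 1000 kb or longer sits lowest, at 0.0535, and rates near starts sit above those away from them in long and shorter genes.

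Long-gene interior held fewer peaks per 100 kb than shorter-gene interior and the surroundings of gene ends. A rate for the space outside genes was not computed. The 1399 long genes held 551 Mb of interior with 0.124 deep peaks per 100 kb (0.115 to 0.134). The interior of shorter genes held 0.154 per 100 kb (0.142 to 0.166), and bases within 10 kb of protein-coding gene ends held 0.668 (0.646 to 0.690). These 3 intervals do not overlap. Deep peaks made 77.7% of the 882 peaks that overlapped a long gene. The share of long-gene bases that is interior was not set beside this, so it shows no preference for the interior. The median distance of deep peaks to the nearest protein-coding gene end was 99.8 kb, and the greatest was 1015 kb.

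Among the long genes, the rate was lowest in the longest class. It was 0.153 per 100 kb in genes of 200 to 300 kb (0.133 to 0.176), 0.132 in those of 300 to 500 kb (0.115 to 0.151) and 0.134 in those of 500 to 1000 kb (0.116 to 0.153), whose intervals overlap. The 69 genes of 1000 kb or longer held 50 deep peaks in 93.5 Mb, a rate of 0.0535 (0.0397 to 0.0705). Without chromosome X this rate was 0.0563 (0.0418 to 0.0742). A deep peak was present in 20.4%, 28.8%, 42.7% and 36.2% of the genes of the 4 classes in order of length, against 27.9% of all long genes. CNTNAP2, a neuronal adhesion gene of 2304 kb, DMD, which encodes dystrophin, at 2220 kb, and CTNNA3, an alpha-catenin gene of 1851 kb, were the longest genes with no deep peak.

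Position along the gene made little difference up to 500 kb from the start. On the 559 deep peaks whose host has a known strand, 273 lay nearer to the annotated start than to the other end. The rate was 0.130 per 100 kb at 10 to 25 kb from the start and 0.140 at 100 to 200 kb. Beyond 500 kb it was 0.0946 (0.0750 to 0.118), an interval that lies just under that at 100 to 200 kb (0.119 to 0.163). For peaks with a local background of 10 or less, these rates were 0.0757 (0.0583 to 0.0966) and 0.137 (0.116 to 0.160). Measured from the other end of the gene, the rate beyond 500 kb was 0.0753 (0.0580 to 0.0962). At 100 to 200 kb from that end it was 0.156 (0.134 to 0.181). Only genes over 500 kb reach the farthest class, so position and gene length cannot be told apart there.

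Deep peaks had the lowest median fold enrichment of the 4 classes of peaks. It was 6.54, with quartiles of 5.66 and 8.06 and a range from 1.59 to 30.3. The medians were 7.23 for peaks deep in shorter genes, 6.86 for peaks within 10 kb of a gene end and 6.79 for peaks more than 10 kb outside genes. A fold enrichment of at least 10 was reached by 76 deep peaks (11.1%, 8.84 to 13.7). The share was 16.4% (13.6 to 19.6) in shorter genes, 16.3% (15.1 to 17.5) near gene ends and 14.3% (12.5 to 16.3) outside genes. The interval of the deep peaks overlaps those of shorter genes and of peaks outside genes and lies below that of peaks near ends. Among the first 1000 peaks of the list by fold enrichment, 77 were deep in long genes (7.70%).

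Reads at the summit and the local background were solved from the deposited values, in units of ChIP pileup. The median summit of a deep peak had 16 reads, from 9 to 253, against a median background of 1.31. The median −log10 q, which is larger for stronger evidence against background, was 7.26 in deep peaks, 8.26 in shorter genes and 7.64 near ends. Restricting each class to peaks at the lowest background, 1.035, gave median fold enrichments of 7.23 for 215 deep peaks, 7.71 for 196 in shorter genes, 7.23 for 1246 near ends and 7.23 for 432 outside genes, so that the deep peaks then had the same median as the last 2 classes. A fold enrichment of at least 10 was then reached by 14.9% (10.4 to 20.4), 20.9% (15.4 to 27.3), 18.5% (16.4 to 20.8) and 18.8% (15.2 to 22.8), and these intervals overlap.

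Deep peaks were also the narrowest of the 4 classes. Their median width was 202 bp, their quartiles were 168 and 264 bp, and the extremes 146 and 874 bp. Medians were 214 bp in shorter genes, 228 bp near gene ends and 214 bp outside genes. At least 450 bp was reached by 24 deep peaks (3.504%), against 3.99%, 6.70% and 6% of the other classes in the same order.

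**Figure D2:**
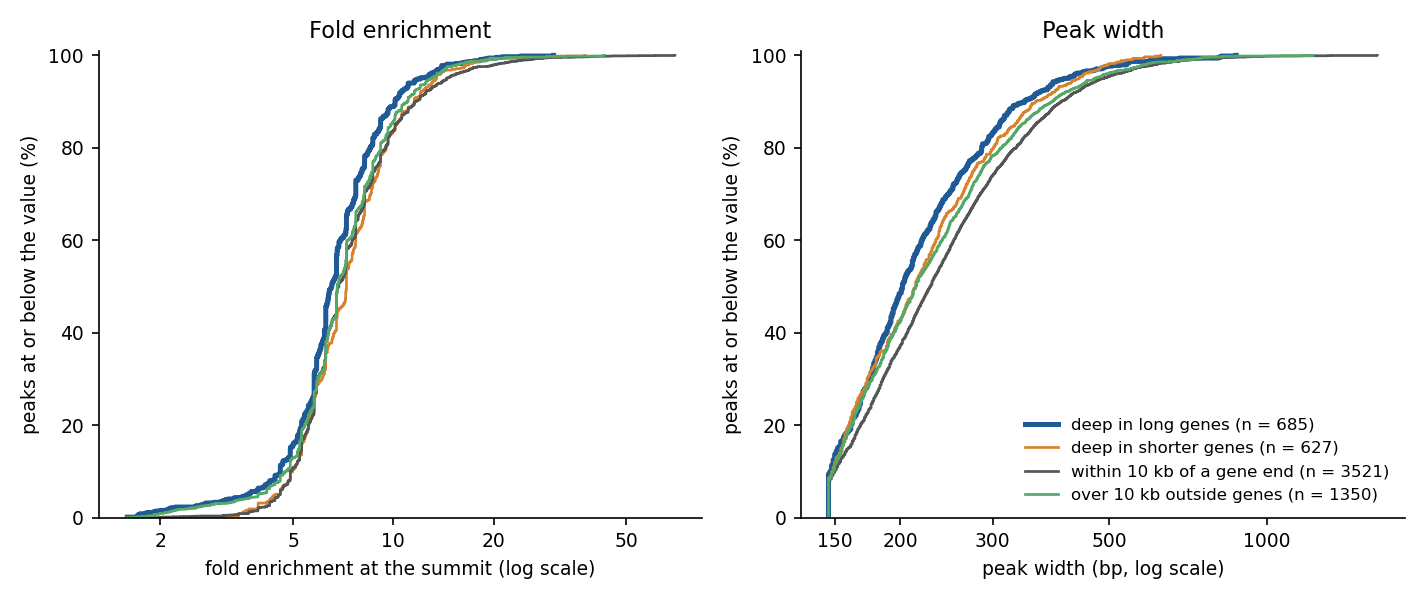
Cumulative share of peaks (%) by fold enrichment at the summit (left) and by width in bp (right), both on log axes, for deep peaks in long genes (thick blue), peaks deep in shorter genes, within 10 kb of a gene end and more than 10 kb outside genes. The blue curve has the lowest medians, 6.54 and 202 bp, and in the width panel it joins the curves for shorter genes and outside genes at the lower end.

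The strongest deep peaks lay in genes of varied function. ADGRL2, a latrophilin adhesion receptor, held the highest at chr1:81801022-81801570, with a fold enrichment of 30.3, 70 reads (54.6 to 88.4) over a background of 1.299 and a width of 549 bp. It ranked 23 in the whole list. RBPJ, the DNA-binding effector of Notch signalling, followed at chr4:26320548-26320929 with 24.1 and 49 reads (36.3 to 64.8). MAML3, a Notch coactivator, had 18.8 at chr4:139734898-139735326.

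The others of the first 10 ranged from 21.2 to 16.9. SLC39A11, a zinc transporter gene, had 21.2 (chr17:72775889-72776275, 68 reads), DAB2IP, a Ras GTPase-activating protein gene, 20.4 (chr9:121651367-121651686, 44 reads) and CALN1, which encodes a calcium-binding protein, 19.3 (chr7:71808135-71808520, 39 reads). A peak in the overlapping genes FPGT-TNNI3K and TNNI3K had 18.3, one in the synapsin gene SYN3 18.2, one in the tetraspanin gene TSPAN9 17.5 and one in FOXN3, a forkhead factor gene, 16.9. The read intervals of ADGRL2 and RBPJ overlap, so the order of neighbours is not firm. The widest deep peak was in ALK (874 bp, fold enrichment 3.62), followed by one in MYO18B (818 bp, 12.7) and one in NBAS (816 bp, 2.74). Those in ALK and NBAS had a local background over 10.

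Genes with several deep peaks held most of them. Of the 1399 long genes, 390 had a deep peak (27.9%, 25.5 to 30.3), 144 had 2 or more (10.3%) and 72 had 3 or more. The 144 genes held 442 of the 685 deep peaks (64.5%), and the 72 held 300. Exactly 1 deep peak was present in 246 genes, and genes with a deep peak had a median length of 386 kb, against 302 kb for those without. Deep peaks that shared a gene had a median spacing of 43.3 kb to their neighbour, and 45 of the 299 neighbouring pairs were under 5 kb apart. There were 5 deep peaks that lay in more than 1 long gene and count for each.

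NBAS, which functions in Golgi-to-endoplasmic reticulum transport, held 24 deep peaks in 762 kb of interior, or 3.15 per 100 kb (2.02 to 4.68). All 24 had a local background over 10. Their backgrounds ran from 33.4 to 98.0 and their fold enrichments from 1.59 to 4.12. The 16 peaks between chr2:14800211 and 15060581 had backgrounds of 70.2 to 98.0, and the 8 from 15111808 to 15527621 had 33.4 to 52.0.

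ALK, a receptor tyrosine kinase that is mutated or amplified in some neuroblastomas, held 8 deep peaks, of which 6 had such a background. Those 6 lay between chr2:29528914 and 29656026, with backgrounds of 50.5 to 67.0 and fold enrichments of 2.15 to 3.87. The other two, on either side of them, had backgrounds of 1.42 and 1.62 and fold enrichments of 5.28 and 6.37, so the background differed within the gene. One more such peak was in ANTXR1, also on chromosome 2, with a background of 35.8 and a fold enrichment of 2.56. IMR-32 carries amplified MYCN, a gene that lies close to NBAS. Copy number was not measured in the file used here, and its part in these backgrounds was not tested.

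These 31 deep peaks in 3 genes are 27.7% of the 112 peaks with a background over 10 in the list. Their median read count was 170 and their median fold enrichment 2.22, and no peak among them reached a fold enrichment of 5. Without them, 654 deep peaks remained, with a median fold enrichment of 6.72. The rate was then 0.119 per 100 kb (0.110 to 0.128), and 388 long genes held a deep peak. The rate on chromosome 2 was 0.157 with them and 0.0913 without.

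**Figure D3:**
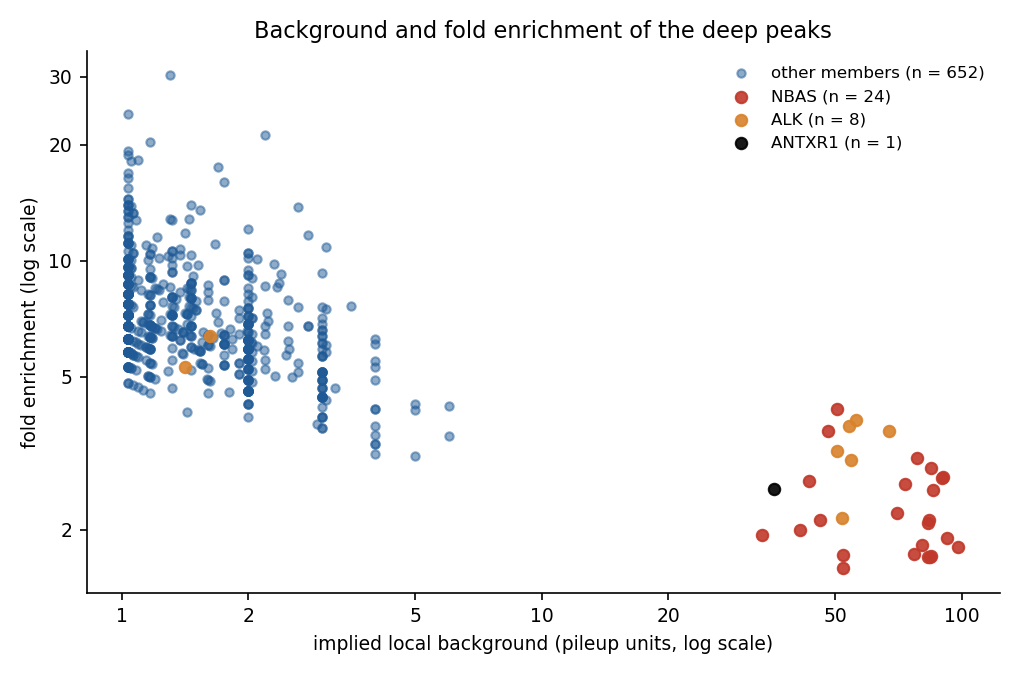
Fold enrichment (y) against the implied local background in pileup units (x), both on log axes, for the 685 deep peaks. Blue points are peaks outside NBAS, ALK and ANTXR1, and the peaks of NBAS (red), ALK (orange) and ANTXR1 (black) that have a background over 10 form a separate set at 33.4 to 98.0, with 2 ALK peaks among the blue points.

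The other genes named for many deep peaks held none with a background over 10. RBFOX3, the gene of the neuronal splicing factor NeuN, held 9 on chromosome 17, at 1.62 per 100 kb (0.740 to 3.07). Their fold enrichments were 4.42, 4.99, 5.02, 5.64, 6.20, 6.76, 7.31, 8.53 and 8.74, and none reached 10. MSI2, an RNA-binding regulator on the same chromosome, held 8 at 1.88 per 100 kb (0.811 to 3.70). Its values were 3.76, 5.41, 6.03, 6.62, 7.48, 7.62, 10.9 and 11.7, so that 2 reached 10.

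AUTS2, a regulator of neurodevelopment, held 7 deep peaks in 1175 kb, from 3.68 to 7.23, and is the longest of the genes shown on the map of summits. TSPAN9 held 6 in 189 kb, or 3.17 per 100 kb (1.16 to 6.90), from 4.42 to 17.5, and 3 of them lay within 10 kb of one another. The coactivator gene ZMIZ1 (4.17 to 6.36), the dynein adaptor gene BICD1 (3.93 to 9.02) and BACH2, a basic leucine zipper factor gene (6.45 to 8.66), held 6 each. GSE1 also held 6, at a lower rate. GLIS1, a zinc finger factor gene, held 5 in 213 kb, at 2.35 per 100 kb. The intervals of these rates overlap, so their order is not firm.

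**Figure D4:**
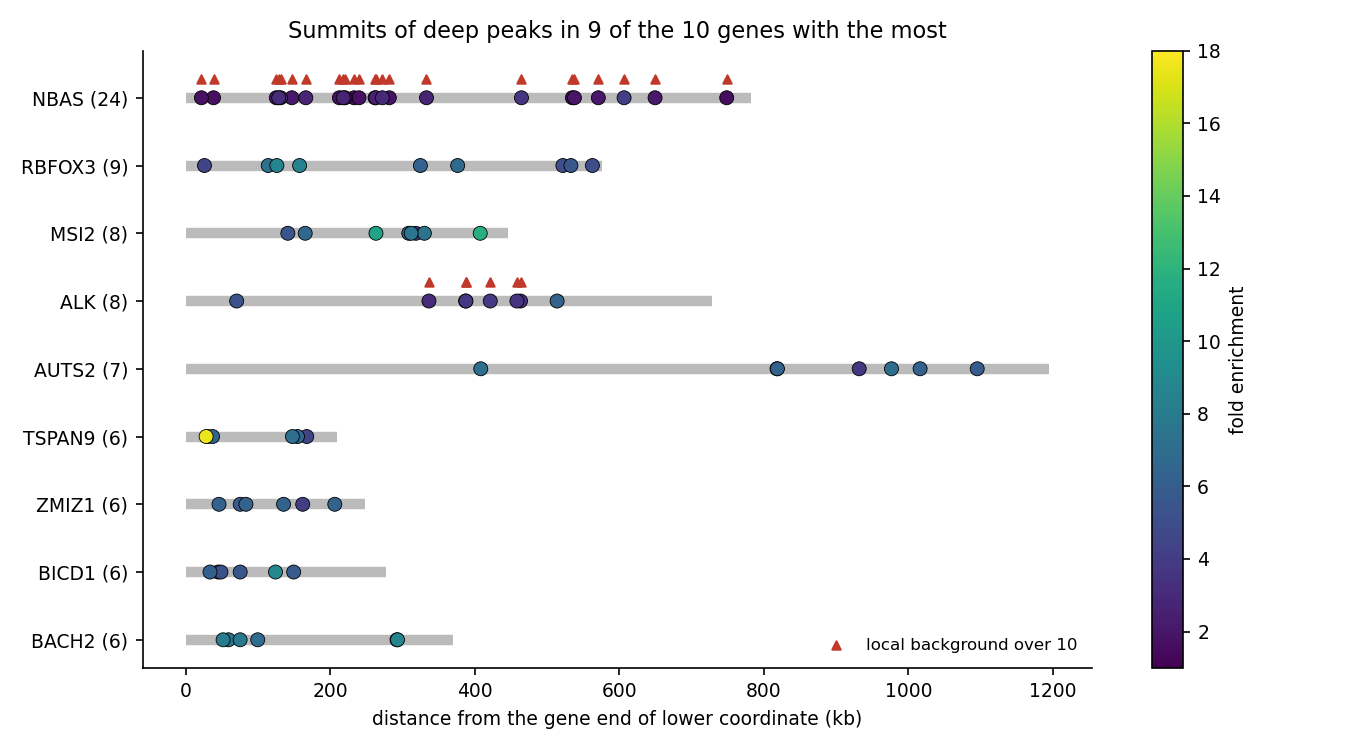
Summits of deep peaks in 9 of the 10 genes with the most (ties by rate), as distance in kb from the gene end of lower coordinate; grey bars are the genes, colour is fold enrichment and red triangles mark a local background over 10. Triangles cover all 24 NBAS peaks and the 6 middle ALK peaks and no peak in the other genes.

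The rate was uneven between chromosomes in long and shorter genes alike. On chromosome 17 it was 0.341 per 100 kb of long-gene interior (0.246 to 0.461; 42 deep peaks), and 0.377 in shorter genes. The median background on this chromosome was 2.63, against 1.31 over all deep peaks, and its part in the rate was not tested. There were 29 long genes with 4 or more deep peaks and none of high background. Of these, 5 lay on chromosome 17, RBFOX3 and MSI2 among them, 4 on chromosome 12, 4 on chromosome 1 and 3 on chromosome 6. Chromosome 19 had the highest rate, 0.426 (0.156 to 0.928; 6 deep peaks), at a median background of 1.043, with 0.315 in shorter genes. Its long-gene interior was only 1.41 Mb, and 4 of the 6 peaks lay in the same gene within 69.2 kb. The interval contains that of chromosome 17. On chromosome 12 the rate was 0.234 (0.177 to 0.303), and 2 deep peaks in 23.01 Mb on chromosome X gave 0.00869 (0.00105 to 0.0314), with 0.0123 in shorter genes.

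Gene groups were read against the 27.9% of all long genes that held a deep peak and against their median length of 319 kb, since a longer gene has more room for a peak. Transcription factors, cofactors and RNA-binding regulators had one in 27 of 63 long genes (42.9%, 30.5 to 56.0; median length 397 kb), and 0.231 deep peaks per 100 kb (0.180 to 0.293). Among them were RBFOX3 (9), AUTS2 (7) and MAML3 (5). The rate over all long genes was 0.125 when each gene counts its own peaks, which is below the interval of this group. The groups were drawn up with earlier results of these data known, and MSI2, BACH2, GLIS1 and ZMIZ1 were not in this one. Peaks that share a gene are not independent, so the difference is descriptive only. Ion channels and their subunits had one in 16 of 37 (43.2%, 27.1 to 60.5; median length 403 kb), led by the potassium channel regulator KCNIP1 (4), the potassium channel KCNJ6 (3) and the ryanodine receptor RYR2 (3). Their share and their rate of 0.166 per 100 kb (0.110 to 0.242) have intervals that include the values over all long genes.

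Axon guidance genes had a deep peak in 12 of 31 (38.7%, 21.9 to 57.8; median length 386 kb), with 4 each in the navigators NAV1 and NAV2 and 3 in the ligand SLIT3. Neuronal adhesion and synapse organisers had one in 18 of 56 (32.1%, 20.3 to 46.0), led by LSAMP (4) and TENM4 (4). These genes had a median length of 913 kb, and their rate of 0.0706 per 100 kb (0.0500 to 0.0970) lies below that over all long genes. Cytoskeletal, scaffold and trafficking genes had one in 16 of 50 (32%; median length 550 kb), with 6 in BICD1 and 3 in DST. Transmitter receptors had one in 8 of 25 (32%; median length 421 kb), none with more than 1. Intracellular signalling enzymes had one in 11 of 46 (23.9%; median length 423 kb), with 3 each in CAMK4 and PDE4D.

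Receptor kinases and phosphatases had a deep peak in 7 of 17 genes (41.2%, 18.4 to 67.1; median length 441 kb), and 9 of their 15 peaks had a background of 10 or less. Genes altered in neuroblastoma or at its risk loci had one in 10 of 14 (71.4%, 41.9 to 91.6), with a median length of 885 kb. The share over all long genes of 500 to 1000 kb, 42.7%, lies within this interval. Of their 46 deep peaks, 30 were those of high background in NBAS and ALK, and without these 9 of the 14 genes had one. Genes of common fragile sites, regions prone to breakage under replication stress, had one in 14 of 24 (58.3%, 36.6 to 77.9). Their median length was 1375 kb and their rate 0.0951 per 100 kb (0.0642 to 0.136), which overlaps that over all long genes. A deep peak was present in 25.1% of the long genes in none of the groups. The groups overlap and are not independent. The 7 deep peaks of AUTS2 count among neuroblastoma genes, fragile-site genes and transcription factors, and those of ALK among neuroblastoma genes and receptor kinases.

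Long genes with a deep peak more often had a peak near their ends as well. Among genes of known strand, 66 of 314 with a deep peak had a peak within 10 kb of their outermost start (21.0%, 16.6 to 25.9), against 118 of 845 without one (14.0%, 11.7 to 16.5). At 200 to 300 kb the shares were 27.5% (19.4 to 36.9) and 13.9% (10.7 to 17.5), at 300 to 500 kb 18.8% and 15.4%, and from 500 kb 16.5% and 11.7%. Only at 200 to 300 kb did the intervals not overlap among these 3 length classes. At the other end of the gene, 21 of 314 with a deep peak had a peak within 10 kb (6.69%, 4.19 to 10.04), against 19 of 845 without one (2.25%, 1.36 to 3.49).

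A noncoding gene was overlapped by 69 deep peaks (10.1%, 7.92 to 12.6), and for 66 of them it was a long noncoding RNA gene. The share of peaks deep in shorter genes was 8.93% (6.82 to 11.4). A microRNA hairpin, that of MIR4681, lay inside a deep peak of GRK5 at chr10:119377512-119378145, which had a fold enrichment of 6.21. Another, that of MIR199A2, lay 201 bp from a peak in DNM3 at chr1:172144845-172145045, which had a fold enrichment of 4.58. The mature form of MIR4681 and 1 of those of MIR199A2 are shown with the seed, bases 2 to 8, in capitals. The other form of MIR199A2, hsa-miR-199a-3p, is not shown.
hsa-miR-4681: aACGGGAAugcaggcuguaucu
hsa-miR-199a-5p: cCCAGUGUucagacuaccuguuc

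Of the 8 peaks next to the limits of the rule, 3 had a fold enrichment of at least 10. Just inside the length limit were peaks in ST6GALNAC5 (200.07 kb, fold enrichment 6.54) and TSHZ3 (201.0 kb, 5.79), and just outside it were those in LRCH1 (199.87 kb, 11.6 and 9.95). Just inside the distance limit were peaks in WDR7 (10080 bp from an end, 5.70) and ATXN1 (10591 bp, 14.0), and just outside it were those in ZNF704 (9793 bp, 12.05) and STK3 (9864 bp, 8.50).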

How the data were processed

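NeuroD1 binding was measured by ChIP-seq in IMR-32 cells, in 1 ChIP library, and the peak list deposited for it was used. Per the labels, reads were placed on hg38, and the submitters' processing notes list BWA 0.7.17 and MACS2 2.2.7, while the peak names carry macs3. The labels name a NeuroD1 antibody, whereas the supplementary ChIP methods name one to H3K27Ac, and the list was used as labelled. The use of the input and the peak threshold are not given in the sources used here.

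For each peak the authors deposited a fold enrichment (a ratio of pileup over local background, each with 1 added), the −log10 p-value and −log10 q-value, and a score derived from the latter. Another deposited score is fold enrichment over width. Total depth is unknown. Start positions were converted to count from 1.

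A weight of 0.980 per read and a lowest background of 1.035 were derived from the deposited values, and the Poisson formula then gave reads and background for each summit, to within 0.00137 in −log10 p. The solver and the classes were tested on simulated data. Genes were those of RefSeq GRCh38.p14, with 20037 protein-coding genes. Inner starts and strand came from its promoter table, in which 1159 of the 1399 long genes matched and chromosome 8 was not used. Exons and introns were not analysed here. A background over 10 was called high. Intervals are exact Poisson for rates and reads and exact Clopper-Pearson for shares, at 95%.

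The members and lists were chosen with earlier results of these data known. The genes named were the 10 with the most deep peaks, the 5 with the highest rate among those with 2 or more, those of the 10 strongest and 3 widest deep peaks, those next to the limits, the 3 longest without one, and up to 4 per list. The result for 1 of these genes is not reported here. MCF2L, NFIB, ANTXR1, GRK5 and the microRNAs were chosen after their values were seen. Alternatives changed the length and distance limits, the placing of peaks, strength, background and chromosomes. Scripts ran in Python 3.11.15 with scipy 1.17.1, pandas 2.3.3, numpy 2.4.6 and, for figures, matplotlib 3.10.9.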

Additional observations from a re-analysis of the deposited data

How the results depend on the processing

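A length limit of 150 kb gave a share of long genes with a deep peak of 23.4%, and a limit of 300 kb gave 33.9% and a rate of 0.115 per 100 kb. Keeping a −log10 q of 5 or more gave a share of 23.6%, a rate of 0.0956 per 100 kb, a median fold enrichment of 7.19 and a median width of 212 bp. Keeping a fold enrichment of 5 or more gave a rate of 0.105 per 100 kb and a median fold enrichment of 6.79. These filters remove weak peaks by construction. Over the 10 alternatives the number of deep peaks ranged from 479 to 812 and that of genes with 2 or more from 104 to 168. The share of deep peaks at inner starts ranged from 6.96% to 9.68% over 6 alternatives chosen after seeing the data. The share of summits with an E-box at 50 or 100 bp was not run, since no genome was used. No paired analysis was possible because the ChIP library is single. A single library of unknown depth cannot show how far a weak peak would recur.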
